A study of Mus musculus with 9 samples.

Results

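Silencing of Hnrnpk during the conversion of mouse embryonic fibroblasts (MEFs) to induced pluripotent stem cells was compared with a control hairpin against luciferase, a gene these cells do not carry. The comparison used 6 of the 9 libraries of the study, 1 of each arm on days 6, 9 and 12, and 12541 of the 12550 genes in the deposited table, those with a mean signal of at least 20 over the 9 libraries. All arms shared the same background: MEFs of strain C57Bl/6cJ, plasmids for Oct4, Sox2, Klf4 and c-Myc, and embryonic stem cell medium with serum and LIF. The hairpins came from pretroSuper constructs against luciferase, Hnrnpk or Trp53cor1 (lincRNA-p21), and the third arm entered only through the shared estimate of spread. Total RNA was taken from whole cultures, the labels describe every library as merged replicates, and they do not say how many were merged. Each target had 1 arm, so what a hairpin does to other RNAs and what the loss of its target does cannot be told apart.

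Hnrnpk encodes hnRNP K, an abundant nuclear protein that binds C-rich RNA and DNA through KH domains. It takes part in transcription, splicing, RNA stability and translation, and it is a known partner of lincRNA-p21 in gene repression downstream of p53. Reprogramming of fibroblasts runs through loss of mesenchymal genes and gain of epithelial genes before the pluripotency network starts up. The question of the comparison was what reduced Hnrnpk does to gene expression along that course.

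Hnrnpk (13:58391142-58403343, minus strand, GRCm38) had a normalized signal of 31243, 26944 and 23376 in the luciferase arm on days 6, 9 and 12, and of 11349, 17016 and 12793 in the Hnrnpk arm. The groups did not overlap, and the depletion was deepest on day 6. It fell by 0.997 on the log2 scale (SE 0.16, limma, Benjamini-Hochberg adjusted p = 0.00824), and the adjusted p was 0.0528 with only the 6 libraries of the 2 arms. Trp53cor1, the transcript of lincRNA-p21 (17:29057430-29079179, minus strand), had 286.5, 237 and 250 in the luciferase arm and 131, 137 and 119.5 in the Hnrnpk arm, again without overlap. It fell by 0.94 (SE 0.15, limma adjusted p = 0.00752), so the Hnrnpk arm is low in both RNAs. The RNAs of the introduced factors were also lower: Klf4 was at 56808.5, 39217 and 39217 against 27901, 25958 and 22588 (-0.81, SE 0.14, limma adjusted p = 0.00948), and Sox2 (-0.48) and Myc (-0.87) fell as well. For Pou5f1 (Oct4) the difference was -0.60 (limma adjusted p = 0.0885), with 27901, 44876 and 90514 against 17258.5, 44876 and 42046.5. Plasmid and endogenous transcripts are not separated in these values, and the part of factor dose in the results was not tested. All differences below are log2(signal + 10) of the Hnrnpk arm minus the luciferase arm, which understates the change of genes with a low signal.

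Cell identity was checked first with short marker lists. All 10 fibroblast markers were in the table, with a summed signal of 286209, 248742 and 295939 in the luciferase arm and 325814.5, 175309 and 239017.5 in the Hnrnpk arm, higher on day 6 and lower on days 9 and 12. Of the 8 macrophage markers only Cd68 was in the table, at 120.5, 238.5 and 380 in the luciferase arm and 780, 314.5 and 556 in the Hnrnpk arm, and the other 7 were not analysed here. The 6 keratinocyte markers present summed to 1059, 4036 and 4307 in the luciferase arm and to 2063.5, 7027.5 and 11011.5 in the Hnrnpk arm. The 8 pluripotent cell markers summed to 209.5, 529.5 and 682 against 204.5, 4260 and 9382, so on day 6 both arms were equally low. The 3 endothelial markers present summed to 2355, 3341.5 and 2901 against 2276.5, 2760 and 2377.5, lower on each day. The 4 glia and neural crest markers present summed to 1121.5, 2508.5 and 3829 against 939, 2339.5 and 2789, also lower each day. The 3 adipocyte markers present were higher on day 6 (811.5 against 880.5) and lower afterwards (980 and 949.5 against 791.5 and 890.5). None of the markers in these lists was called. In RNA from whole cultures a larger share of a cell type and more RNA per cell cannot be told apart.

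The columns as normalized by the authors have nearly equal totals (they differ by 0.0252%) and the same highest value, 118715. How they were normalized is not known here, nor is the number of reads behind them. A shift shared by all genes would not be seen in such columns. With 1 library per arm and day there is no replicate within a day: the 3 days served as the repeats. The p-values set the mean arm difference against a spread over days that is pooled from all 3 arms and moderated across genes. Of 12541 genes, 1570 passed the test (limma with a term for day, adjusted p under 0.05), which is 12.5%. Of these, 700 rose (5.58%) and 870 fell (6.94%), and 266 of the rises and 119 of the falls were at least 2-fold. The count depended on which days entered: it was 3001 without day 6, 25 without day 9 and 367 without day 12. Among single libraries, it was 559 without the luciferase library of day 9, 603 without the Hnrnpk library of day 9, 759 without that of day 12, 987 without the luciferase library of day 12 and 967 without the lincRNA-p21 library of day 9. With only the 6 libraries of the comparison it was 330, and without a term for day it was 1. The counts of calls below are therefore read with the values on each day.

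Without any test, 2513 genes (20%) were higher on all 3 days and 2932 (23.4%) were lower on all 3. Another 1858 genes (14.8%) were lower on day 6 and higher on days 9 and 12, and 1552 (12.4%) showed the opposite order. Of the 1570 genes called, 1567 kept 1 direction on all days. The 3 exceptions were Lin28a, Dppa5a and Peg10, which were level on day 6 and higher afterwards. Across genes, the differences on days 9 and 12 ran together (Pearson r = 0.73, Spearman rho = 0.63 over 12541 genes), those on days 6 and 9 less so (0.44 and 0.35), and those on days 6 and 12 least (0.29 and 0.20). These are descriptions across genes, which are not independent replicates. A difference of at least 2-fold in 1 direction on all 3 days was met by 129 genes, 91 higher and 38 lower, and 128 of them were also called.

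**Figure D1:**
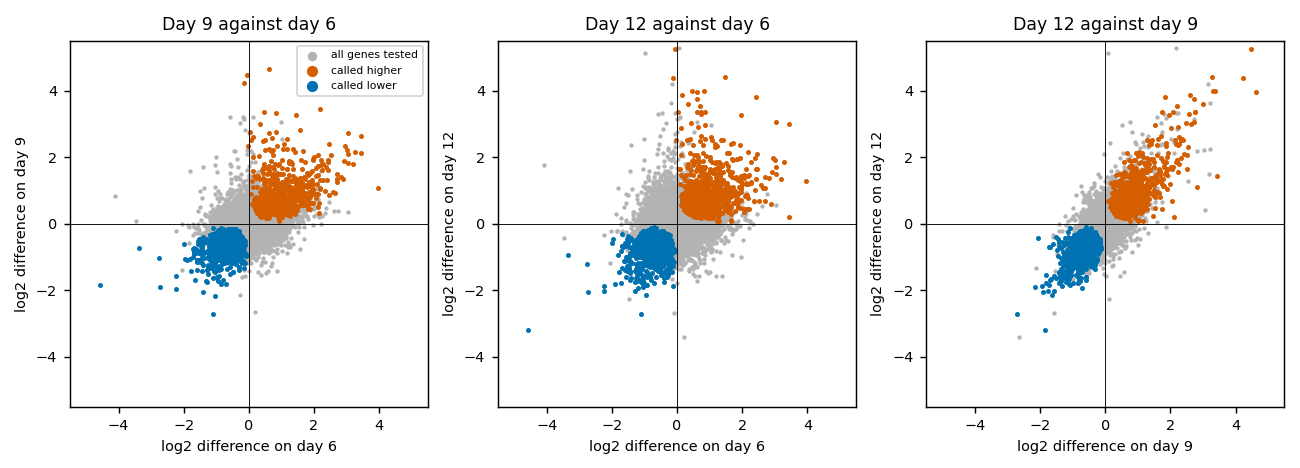
Log2 difference (Hnrnpk arm minus luciferase arm) of each of 12541 genes on 1 day against another; grey points are all genes tested, orange and blue points the genes called higher (700) or lower (870). Points lie along the diagonal most closely for days 9 and 12 (r = 0.73) and least for days 6 and 12 (r = 0.29).

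The genes that differed most steadily were ranked by their smallest difference over the 3 days. On the high side stood Nkx2-3, Lrp2, Nefl, Isg15, Serpinb9b, Ivl, Fabp3, Chst1, Ereg, Car2, Cysltr1 and Trp73. Nefl, the light neurofilament chain of axons, had 325.5, 192 and 158.5 in the luciferase arm and 1842, 1061.5 and 714 in the Hnrnpk arm. The signal was lower on later days in both arms, and the difference stayed between 2.10 and 2.46 on each day (2.33, SE 0.11, limma adjusted p = 0.000117). Car2, a carbonic anhydrase, was higher on later days in both arms, at 86, 455.5 and 908.5 in the luciferase arm and 489, 1501.5 and 3563.5 in the Hnrnpk arm. Its difference was 2.01 (SE 0.16, limma adjusted p = 0.00131). Chst1, a keratan sulfate sulfotransferase, stood at 84.5, 69 and 52 against 300, 276.5 and 319.5, with no overlap (1.99, SE 0.20, limma adjusted p = 0.00272). Trp73, the p53 relative p73, was near the added 10 in the luciferase arm, at 7.5, 3 and 2.5, and at 65.5, 44 and 29 in the Hnrnpk arm (1.94, SE 0.29, limma adjusted p = 0.00609). Cysltr1, a leukotriene receptor, was listed at 0 on day 6 in the luciferase arm, at 10 and 24 later, and at 21.5, 80 and 169 in the Hnrnpk arm.

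On the low side stood Arhgap36, Begain, Kctd12, Prkcb, Pom121l2, Mylk4, Negr1, Nlgn3, Macrod1, Aatk, Scn10a and Fras1. Several of these encode proteins known from neurons, among them the synaptic adhesion protein neuroligin 3 (Nlgn3), the adhesion protein Negr1, the kinase Aatk and the sodium channel subunit Scn10a. Prkcb, a protein kinase C, had 960, 811 and 678.5 in the luciferase arm and 196, 268 and 158.5 in the Hnrnpk arm, with no overlap (-1.94, SE 0.15, limma adjusted p = 0.00129). Macrod1, an ADP-ribose hydrolase of mitochondria, stood at 552.5, 1036 and 1239.5 against 224, 412 and 447.5. Its difference lay between -1.45 and -1.27 on every day (-1.34, SE 0.11, limma adjusted p = 0.00143). Nlgn3 had 291, 609 and 692 in the luciferase arm and 113.5, 226.5 and 199 in the Hnrnpk arm (-1.47, SE 0.20, limma adjusted p = 0.0044). Aatk had 145, 467 and 628 against 56, 177.5 and 183 (-1.43, SE 0.15, limma adjusted p = 0.00272). Fras1, a matrix protein of embryonic basement membranes, was lower on later days in both arms, at 1413.5, 780 and 503 against 632.5, 300.5 and 188 (-1.29, SE 0.11, limma adjusted p = 0.00176). For Aatk the luciferase value of day 6 lay below the Hnrnpk values of days 9 and 12, although each day on its own gave a lower Hnrnpk value. The 24 genes were chosen by their differences on all 3 days, so keeping a call is largely set by that choice. Of these 24 genes, 23 remained called with any 1 of the 9 libraries left out. The exception was Kctd12, whose call was lost without the Hnrnpk library of day 9 or of day 12 (-3.48 and -2.93, against -3.21 with all libraries).

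**Figure D2:**
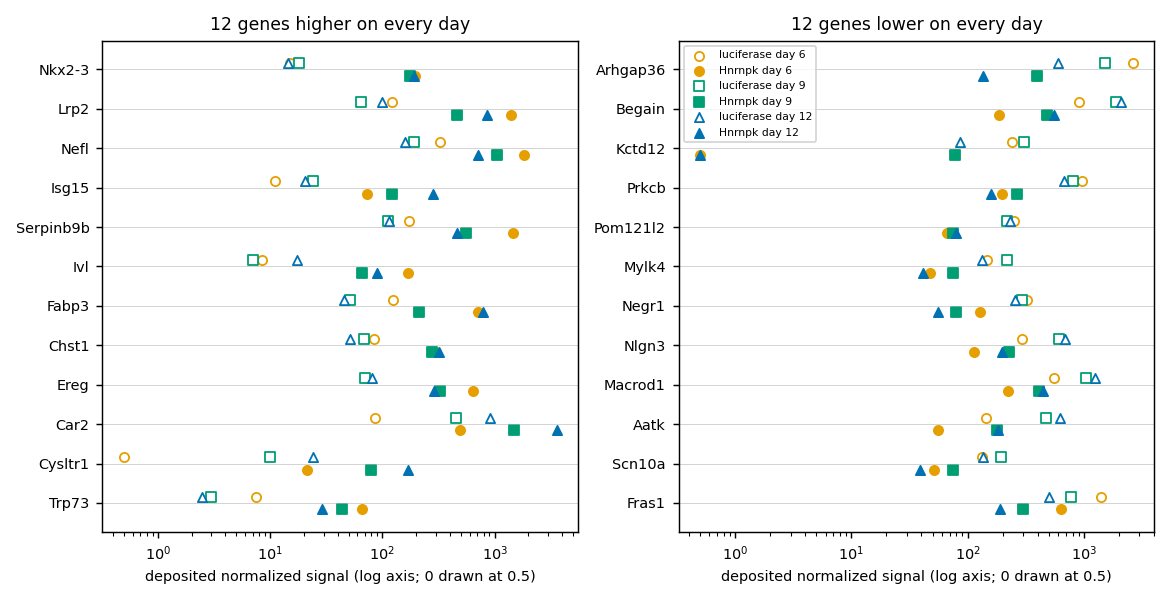
Deposited normalized signal (log axis, 0 drawn at 0.5) in each library for the 12 genes steadily higher and the 12 steadily lower in the Hnrnpk arm; open symbols are the luciferase arm, filled symbols the Hnrnpk arm, and shape and colour give the day. Same-day symbols are apart in 1 direction for every gene, while some genes, such as Car2, also move over time in both arms.

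The 8 called genes whose difference varied most over the days followed a different course, and Kctd12 was among these too. Of the 46 pluripotency and late reprogramming genes, 17 rose and 2 fell (Sox2 and Klf4), with medians of -0.09, 1.04 and 1.19. The number that rose was 2 to 34 with 1 library left out, and in the lincRNA-p21 arm, against the same luciferase libraries, the medians were -0.10, 0.55 and 1.21. Utf1, Dppa5a, Lin28a and Dnmt3l, all genes of the pluripotent state, rose, with a signal of 10 or less in both arms on day 6. Lin28a, for example, had 1, 21 and 57 in the luciferase arm and 0, 574 and 1374 in the Hnrnpk arm. Bmp2, a BMP ligand, was at 161, 412 and 720 against 145.5, 158 and 189, so the arms differed little on day 6 and by 1.88 on day 12 (fitted difference -1.11, SE 0.28, limma adjusted p = 0.034). Ndufa4l2 and Sox1 differed most on day 6: Ndufa4l2 stood at 1234, 1963.5 and 3731 against 111, 1177 and 1949, and Sox1, a neural transcription factor, at 287, 78 and 64 against 33.5, 33 and 22. Kctd12, a GABA-B receptor subunit, was at 239, 306.5 and 86.5 against 0.5, 77.5 and 0.5. Calls in this group depended on single libraries: those of Dppa5a, Lin28a, Dnmt3l and Ndufa4l2 held in 2 of 9 fits that left out a library, Bmp2 in 3, Utf1 in 5, Kctd12 in 7 and Sox1 in 8. Without the luciferase library of day 12 the differences were 2.08 for Lin28a, 2.24 for Dppa5a, 1.44 for Dnmt3l and -0.78 for Bmp2, and without the Hnrnpk library of day 9 it was 2.46 for Utf1, none of them called. Ndufa4l2 was at -0.96 without the luciferase library of day 6, still called, and at -1.13 without the Hnrnpk library of day 6, not called.

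To describe the comparison across pathways, 71 lists of genes were read in the same fit. Each is given by its counts and its median, to be read beside those of all genes tested. The counts cover the members measured. The others were absent from the deposited table, where the lowest mean of a gene is 11.56, or under the mean of 20. Both means include the Hnrnpk arm, so genes low in the luciferase arm could enter more easily if they rose. Of all genes 5.58% were called higher and 6.94% lower, and 20% were higher and 23.4% lower on all 3 days. Another 14.8% were lower on day 6 and higher on days 9 and 12. A count near these shares is not a result about its list. The medians of all genes were -0.02, 0.01 and -0.02 on days 6, 9 and 12. Of the 425 list members called, 135 remained called with any 1 of the 9 libraries left out, and none changed sign. The libraries of days 9 and 12 mattered most: 254 calls were lost without the luciferase library of day 9, 245 without the Hnrnpk library of day 9, 211 without that of day 12, and 163 without the luciferase library of day 12. Without the lincRNA-p21 libraries of days 6, 9 and 12 the losses were 99, 151 and 126, and without the luciferase or Hnrnpk library of day 6 they were 64 and 90. Where a call is said to hold in a number of fits, these are the 9 fits that each leave out 1 library.

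**Figure D3:**
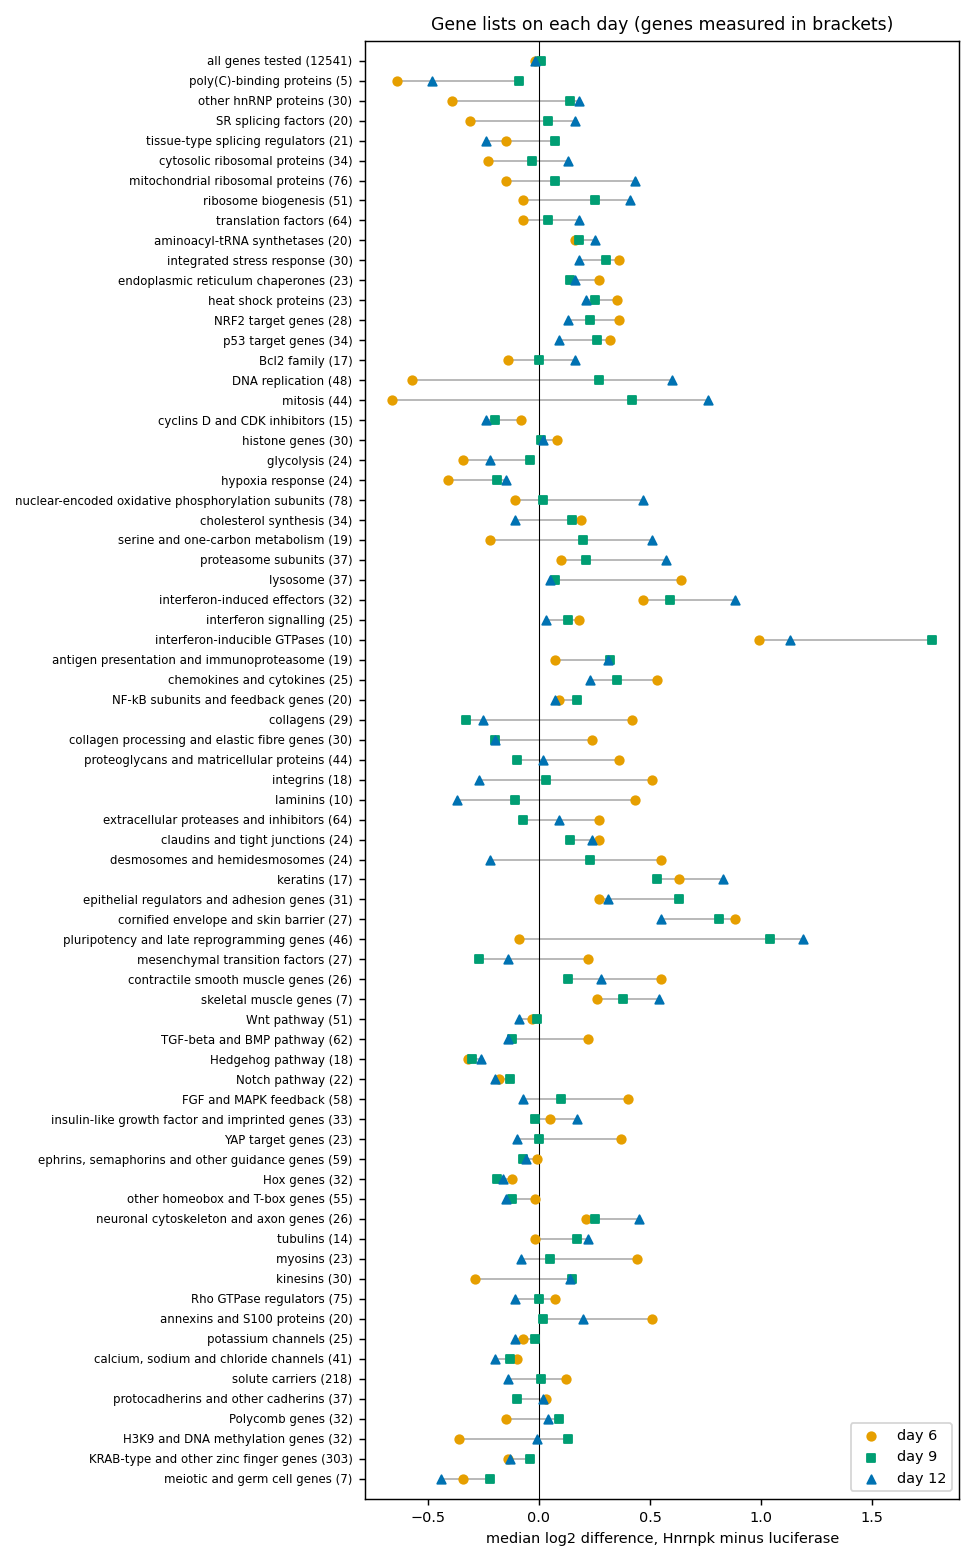
Median log2 difference (Hnrnpk arm minus luciferase arm) over the genes of each list on day 6 (circles), day 9 (squares) and day 12 (triangles); numbers in brackets are the genes measured. Interferon-inducible GTPases, keratins and cornified envelope genes lie to the right of 0 on all days, Hedgehog and hypoxia genes to the left on all days, and DNA replication and mitosis genes cross from left to right after day 6.

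Interferon genes were among the most uniformly higher. Interferons act through transcription factors that bind the interferon-stimulated response element, and induce antiviral effectors and large GTPases that act on intracellular pathogens. Of 16 interferon-inducible GTPases listed 10 were measured, of which 7 rose and none fell, with medians of 0.99, 1.77 and 1.13 on the 3 days. Of 47 effectors listed 32 were measured, of which 16 rose and none fell. Among these 32, 25 (against 20% of all genes) were higher on all 3 days, and the medians were 0.47, 0.59 and 0.88. Members low in the luciferase arm were more easily measured if they rose, so the absence of falls is partly set by which genes entered. Of 25 interferon signalling genes, 4 rose and 2 fell, with a median of 0.18.

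The promoters of these genes were searched for the response element because the genes were higher together. The motif was written GAAANNGAAA, on either strand, in windows from 250 bases before to 50 bases after the gene start. RefSeq promoters (GRCm38.p6) were matched by symbol for 9287 of the genes tested, and 3.67% of these genes held the motif in at least 1 promoter. It was present in 8 of the 8 GTPase genes with a promoter (Gbp2, Gbp3, Gbp7, Irgm1, Irgm2, Igtp, Tgtp1 and Tgtp2), in 12 of 26 effectors and in 4 of 20 signalling genes. Among the 12 effectors that rose and had a promoter, 6 held it. A match describes letters and is not evidence of binding. The lists were drawn up as interferon genes, so the matches are no support for the change in the Hnrnpk arm. Among effectors the share with the motif was similar in those that rose and in all (6 of 12 and 12 of 26). The following stretches of 60 bases before the gene start, read in the direction of the gene, show the match in capitals for Isg15 (4:156200850-156200909), Gbp2 (3:142620579-142620638), Gbp3 (3:142559980-142560039), Irgm1 (11:48871421-48871480), Igtp (11:58199496-58199555), Irgm2 (11:58214888-58214947) and Tgtp1 (11:48992289-48992348). In Gbp2 and Gbp3 the match is on the opposite strand and appears as its reverse complement. Isg15 holds 3 matches before its start, and Irgm1 and Gbp3 hold 2 each, of which 1 is marked.
Isg15: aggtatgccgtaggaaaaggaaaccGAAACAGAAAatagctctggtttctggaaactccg
Gbp2: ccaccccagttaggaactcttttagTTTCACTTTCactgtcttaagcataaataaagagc
Gbp3: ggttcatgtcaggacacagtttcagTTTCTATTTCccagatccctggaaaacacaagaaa
Irgm1: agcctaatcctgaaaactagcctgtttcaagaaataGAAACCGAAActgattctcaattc
Igtp: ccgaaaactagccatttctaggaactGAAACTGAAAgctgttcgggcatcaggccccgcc
Irgm2: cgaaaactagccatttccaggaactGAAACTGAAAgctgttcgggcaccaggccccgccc
Tgtp1: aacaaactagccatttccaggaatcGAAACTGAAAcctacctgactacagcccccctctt

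Isg15, a ubiquitin-like modifier, had 11, 24 and 20.5 in the luciferase arm and 72.5, 121 and 282.5 in the Hnrnpk arm, with no overlap. It rose by 2.39 (SE 0.39, limma adjusted p = 0.00852). Gbp2, a guanylate-binding protein, was at 49, 93 and 104 against 114, 529.5 and 642 (1.99, SE 0.28, limma adjusted p = 0.00526). Tgtp1, an immunity-related GTPase, had its highest value on day 9 in the Hnrnpk arm, with 51, 59.5 and 73.5 in the luciferase arm against 172.5, 484 and 171 (1.84, SE 0.31, limma adjusted p = 0.00907). Gbp9 was near 1 level over time in each arm, at 18.5, 30 and 27.5 against 77.5, 116 and 97.5, and its difference was between 1.52 and 1.66 on every day. Irgm1 stood at 170.5, 165 and 166.5 against 304.5, 596 and 564, and Oas1g, which makes the RNase L activator 2-5A, at 43, 92.5 and 114 against 79.5, 307 and 337. The calls of these 6 genes held with each library left out, while Oasl2 (1.69) and Rtp4 (1.43) kept theirs in 6 and 5 of the 9 fits. Oas, Gbp and immunity-related GTPase genes have close paralogs, so reads may be split between family members.

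Among the regulators, Irf7, the amplifier of type I interferon, rose from 36.5, 32 and 53.5 to 131, 149.5 and 268.5 (1.89, SE 0.27, limma adjusted p = 0.00563). Stat2, a signal transducer of type I interferon, was at 509.5, 372.5 and 418.5 against 769.5, 640 and 624 (0.64). Both were higher on each day without overlap. Some well-known effectors did not pass the test: Ifit2 was at -0.24, Rsad2 at -0.16 and Cmpk2 at -0.08, none of them called by limma. In the lincRNA-p21 arm, which shares the luciferase libraries, the effector medians were 0.13, 0.14 and 0.15, and the GTPase medians 0.81, 1.06 and 0.31. Cd68, a macrophage gene, was also higher in the Hnrnpk arm on each day, with no call. The part of other cell types in these values was not tested.

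**Figure D4:**
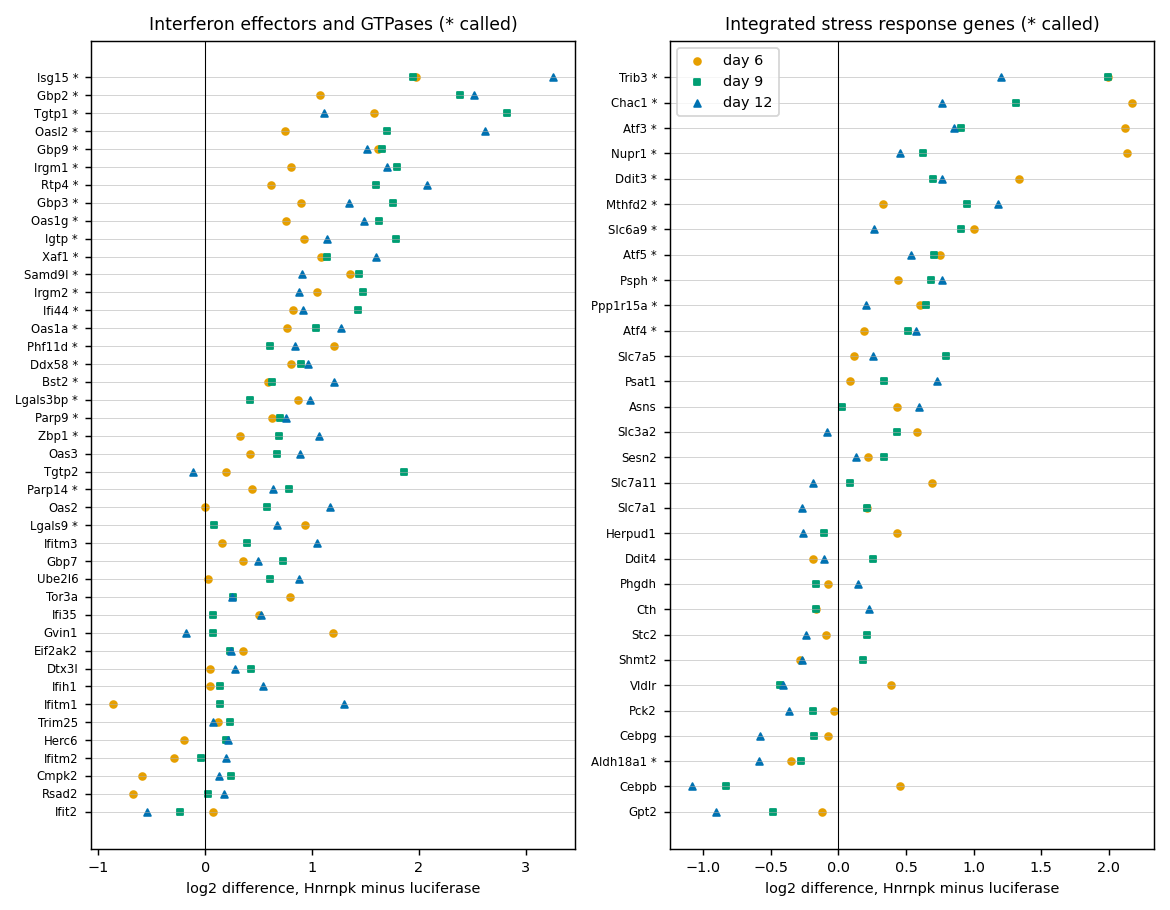
Log2 difference on day 6 (circles), 9 (squares) and 12 (triangles) for each interferon effector and GTPase gene (left) and each integrated stress response gene (right); an asterisk marks genes called. Isg15, Gbp2 and Tgtp1 lead the left panel with differences above 1 on every day, and in the right panel Chac1, Atf3 and Nupr1 are farthest from 0 on day 6.

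Other immune genes followed in part. In the list for antigen presentation and the immunoproteasome 19 of 34 genes were measured, of which 4 rose, none fell and 8 were higher on all 3 days. H2-DMa, which loads peptides on MHC class II, was at 40, 21 and 13 against 217, 54.5 and 43 (1.48, SE 0.26, limma adjusted p = 0.0107). Psmb8, an immunoproteasome subunit, was at 7.5, 27 and 31 against 14, 117.5 and 141.5 and differed mainly on days 9 and 12. Of 25 chemokines and cytokines 8 rose and 2 fell, with medians of 0.53, 0.35 and 0.23 (0.11 on day 12 with the trend over transcript length removed). Ccl2, a monocyte attractant, was highest on day 6 in both arms, at 625.5, 252.5 and 200 in the luciferase arm and 1937.5, 516 and 571.5 in the Hnrnpk arm (1.36, SE 0.16, limma adjusted p = 0.00357). Il7r, a cytokine receptor subunit, went the other way, with 66.5, 82 and 70 against 27.5, 31 and 17 (-1.25, SE 0.20, limma adjusted p = 0.00743). Of 20 NF-kB subunits and feedback genes 2 rose, led by the adhesion molecule Icam1, at 107.5, 77 and 72 against 295.5, 206.5 and 261.5 (1.47, SE 0.15, limma adjusted p = 0.00272). The subunits themselves were not called.

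Stress response genes had medians above 0 on each day, largest on day 6. The integrated stress response is set off by phosphorylation of the translation factor eIF2, raises the transcription factor Atf4 and leads to genes of amino acid supply, redox balance and, if it lasts, cell death. Of its 30 genes 11 rose and 1 fell, with medians of 0.36, 0.30 and 0.18 (0.12 on day 12 with the length trend removed). The members that rose were mostly regulators: Trib3, Chac1, Atf3, Nupr1, Ddit3, Atf5, Ppp1r15a and Atf4, with Mthfd2, Slc6a9 and Psph from metabolism. Amino acid genes of the list, such as Phgdh (-0.03), Shmt2 (-0.12) and Slc7a11 (0.20), were not called. The C/EBP-ATF response element, written TGATGNAA on either strand, was in the promoters of 9 of 28 genes of the list and of 2.62% of the genes with a promoter. The list was drawn up as genes of this response, so the matches are no support for the change. Of the 11 genes that rose the element was found in 4, Atf3, Trib3, Chac1 and Nupr1. In 3 of these it lies before the gene start, and the stretches at 1:191183410-191183469 (Atf3), 2:119351023-119351082 (Chac1) and 7:126625547-126625606 (Nupr1) show it in capitals, as the reverse complement.
Atf3: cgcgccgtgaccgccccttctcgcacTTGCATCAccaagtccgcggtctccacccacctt
Chac1: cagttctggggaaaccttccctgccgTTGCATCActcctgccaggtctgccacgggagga
Nupr1: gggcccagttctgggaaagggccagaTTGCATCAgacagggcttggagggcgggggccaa

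Trib3, a pseudokinase that feeds back on the pathway, had 45.5, 62 and 76 in the luciferase arm and 210.5, 276 and 188 in the Hnrnpk arm. The groups did not overlap, and it rose by 1.73 (SE 0.18, limma adjusted p = 0.00278). Chac1, which degrades glutathione, was at 35, 29 and 46 against 193, 87 and 85 (1.42, SE 0.25, limma adjusted p = 0.0107). Atf3 was at 48, 79.5 and 77.5 against 242, 157.5 and 148.5 (1.29, SE 0.26, limma adjusted p = 0.0154). For Chac1 and Atf3 the Hnrnpk library of day 6 was the highest. Ddit3, the pro-apoptotic factor CHOP, stood at 283, 254 and 275.5 against 728, 419.5 and 476.5 (0.93, SE 0.15, limma adjusted p = 0.00731). Atf4 itself moved less, at 3829, 3734.5 and 3208.5 against 4370, 5331.5 and 4771.5 (0.42, SE 0.11, limma adjusted p = 0.0372), and its call held in 2 of 9 fits leaving out a library. The calls of Trib3, Ddit3 and Atf5 held in all 9, those of Chac1 and Atf3 in 8 and that of Nupr1 in 1.

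Neighbouring stress programmes had smaller shares called, but mostly similar medians. The share called was 40% for the integrated stress response and 13% for endoplasmic reticulum chaperones. It was 17.4% for heat shock genes, 25% for Nrf2 targets and 35.3% for p53 targets, against 12.5% of all genes. In the same order, the medians of the 5 lists over the fit were 0.27, 0.19, 0.29, 0.29 and 0.25. On day 6 they were 0.36, 0.27, 0.35, 0.36 and 0.32, and on day 12 0.18, 0.16, 0.21, 0.13 and 0.09. With the length trend removed the day 12 medians were 0.12, 0.23, 0.15, 0.08 and 0.06. In the lincRNA-p21 arm, against the same luciferase libraries, the day 6 medians were 0.19, 0.22, 0.12, 0.28 and 0.21. Its day 12 medians, without that removal, were 0.02, 0.10, -0.09, 0.09 and 0.11. Of 23 endoplasmic reticulum chaperones 3 rose (Creld2, Hyou1 and Dnajb11) and 11 were higher on all 3 days. Creld2 was at 562.5, 675 and 464 against 794, 1060.5 and 1000 (0.74, SE 0.13, limma adjusted p = 0.00907), and the chaperone Hspa5 was not called (0.51, limma adjusted p = 0.0594). Of 23 heat shock genes 3 rose and Hspa2 fell, while 14 were higher on all 3 days. Of 28 targets of Nrf2, the regulator of antioxidant genes, 5 rose and 2 fell. Hmox1, which degrades heme, led them with 786, 1149 and 1713 against 2609.5, 2022.5 and 3684.5 (1.21, SE 0.21, limma adjusted p = 0.00925), and the metallothioneins Mt1 and Mt2, which bind zinc and other metals, rose by 0.73 and 0.99. Keap1, the inhibitor of Nrf2, fell by 0.35, a call that was lost in each of the 9 fits leaving out a library. Of 34 p53 targets, 10 rose and 2 fell, and Trp53cor1 itself was one of the 2. Gdf15, a stress cytokine, was at 77, 38.5 and 28.5 against 461, 137 and 87 (1.79, SE 0.23, limma adjusted p = 0.00407). Among 20 aminoacyl-tRNA synthetases, which charge tRNAs, 2 rose (10%, against 5.58% of all genes), Aars by 0.61 and Rars by 0.39. On all 3 days 12 were higher (60%, against 20% of all genes) and none lower.

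Genes of cell division switched sides during the course. Of 48 DNA replication genes 40 (against 14.8% of all genes) were lower on day 6 and higher on days 9 and 12, as were 40 of 44 mitosis genes. The replication medians were -0.57, 0.27 and 0.60, and the mitosis medians -0.66, 0.42 and 0.76. Limma, which here tests 1 difference shared by all days, called none of the replication genes (2 at an unadjusted p under 0.05). Gins1, a replication fork protein, had 1462.5, 1684.5 and 1047 in the luciferase arm and 1240, 2665 and 4097.5 in the Hnrnpk arm (0.79, limma adjusted p = 0.202). Ccnb1, the mitotic cyclin B1, was at 2640, 3247.5 and 1950 against 1748, 5629 and 6324 (0.63, limma adjusted p = 0.253). In both genes the luciferase arm was lowest on day 12, and the Hnrnpk arm was above it on days 9 and 12. The 1 mitosis gene called was Cdc25b, a phosphatase that activates cyclin-dependent kinases, which fell from 2368.5, 2649.5 and 2314 to 1683.5, 2003.5 and 1529 (-0.50, SE 0.09, limma adjusted p = 0.0112). Without day 6, 25 replication genes and 35 mitosis genes were called higher, and without day 9 or without day 12 none. In the lincRNA-p21 arm, measured against the same luciferase libraries, the medians were -0.22, 0.24 and 0.53 for replication and -0.34, 0.27 and 0.60 for mitosis. Of 15 cyclin D and CDK inhibitor genes, Cdkn2b rose (1.09) and Cdkn1b and Cdkn2d fell (-0.62 and -0.46).

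**Figure D5:**
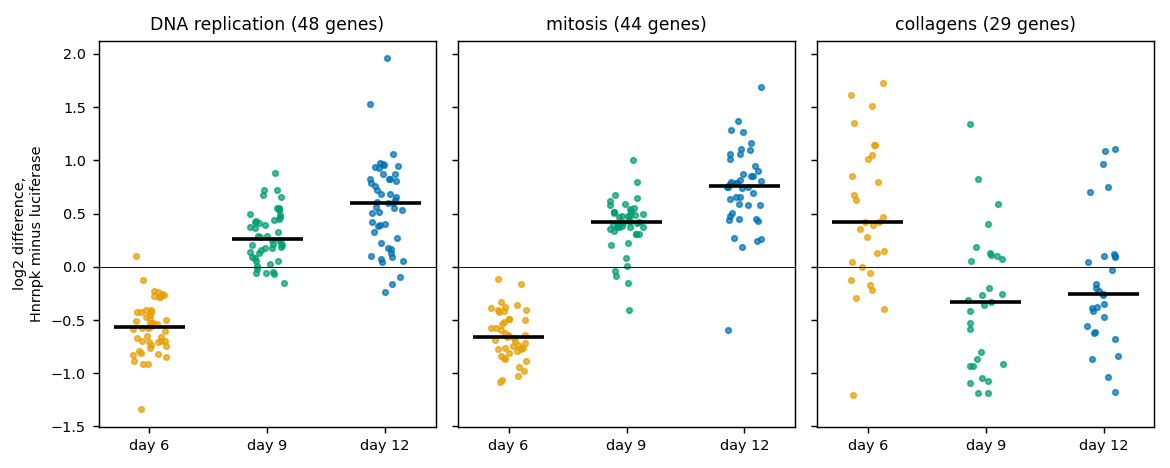
Log2 difference on each day for every gene of the DNA replication (48), mitosis (44) and collagen (29) lists; each point is a gene and the black bar is the median. Replication and mitosis genes move from medians of -0.57 and -0.66 on day 6 to 0.60 and 0.76 on day 12, and collagens from 0.42 to -0.25.

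Several lists of protein synthesis, energy supply and protein turnover had medians above 0 on day 12, with few or no calls. Of 51 ribosome biogenesis genes 4 rose (7.84%, near the 5.58% of all genes), among them Rrp12 (0.51), Pno1 (0.44) and Bysl (0.41). In this list 23 genes (against 14.8% of all genes) were lower on day 6 and higher on days 9 and 12. Medians on the 3 days were -0.07, 0.25 and 0.41 for ribosome biogenesis, -0.15, 0.07 and 0.43 for 76 mitochondrial ribosomal proteins and -0.11, 0.02 and 0.47 for 78 oxidative phosphorylation subunits. None of the mitochondrial ribosomal proteins was called by limma (9 at an unadjusted p under 0.05), nor did any oxidative phosphorylation subunit rise. The 2 ribosomal members with the largest difference were Mrps28 (0.61, limma adjusted p = 0.13) and Mrps6 (0.51, limma adjusted p = 0.0647). Of 37 proteasome subunits 4 rose (10.8%, against 5.58% of all genes): Psmb8, Psmb10, Psmd1 and Psmc5. Of these, Psmb8 and Psmb10 are subunits of the immunoproteasome, so their calls are not separate from the immune genes above. On all 3 days 24 subunits were higher (64.9%, against 20% of all genes) and none lower, with medians of 0.10, 0.21 and 0.57. No call in this list held in all 9 fits. Psmd1, a subunit of the regulatory particle, was at 5227, 4462.5 and 3619 against 6627, 7109 and 5604 (0.55, SE 0.11, limma adjusted p = 0.0164). On day 12 the difference depended on transcript length: its median over all genes went from 0.22 in the 2495 genes with the shortest transcripts to -0.17 in the 2493 with the longest, with no such trend on days 6 and 9. With that trend removed from every library, an alternative chosen after the data were seen, the day 12 medians were 0.23 for mitochondrial ribosomal proteins, 0.15 for oxidative phosphorylation, 0.35 for the proteasome and 0.37 for ribosome biogenesis. For 34 cytosolic ribosomal proteins, none of them called by limma (7 at an unadjusted p under 0.05), the day 12 median was 0.13, and -0.19 with the trend removed. The lincRNA-p21 arm, against the same luciferase libraries and without that removal, also had day 12 medians above 0. They were 0.29 for mitochondrial ribosomal proteins, 0.28 for oxidative phosphorylation, 0.34 for the proteasome, 0.33 for ribosome biogenesis and 0.10 for cytosolic ribosomal proteins.

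Hypoxia genes were lower. HIF factors, stabilised when oxygen is short, induce glycolysis, angiogenesis and their own prolyl hydroxylases. Of 24 genes 7 fell and 1 rose, 11 were lower on all 3 days, and the medians were -0.41, -0.19 and -0.15 (-0.41 on day 12 with the length trend removed). In the lincRNA-p21 arm, against the same luciferase libraries, the medians were similar, at -0.35, -0.14 and -0.18. Egln3, a prolyl hydroxylase that marks HIF for degradation, was higher on later days in both arms, at 4457.5, 11223 and 18590 in the luciferase arm and 1433.5, 6111 and 8447 in the Hnrnpk arm (-1.21, SE 0.15, limma adjusted p = 0.00368). Pdk1, which limits entry of pyruvate into mitochondria, was at 3791, 6852.5 and 8050 against 949.5, 4445 and 5331.5 (-1.07, SE 0.25, limma adjusted p = 0.0263). Vegfa, the angiogenic growth factor, was at 2082, 4052 and 5531 against 1252.5, 2375 and 3465 (-0.72, SE 0.13, limma adjusted p = 0.0106). Each was lower on every day, and the day 6 gap was the widest for Egln3 and Pdk1. Epas1, which encodes HIF-2 alpha, was the member that rose (0.67). Among 24 glycolysis genes Slc2a3, a glucose transporter of high affinity, rose from 1377, 5327 and 7068.5 to 1746, 13512.5 and 24461 (1.16, SE 0.25, limma adjusted p = 0.0222), while Pdk1, Aldoc (-1.01) and Pfkfb3 (-0.52) fell. The calls of Slc2a3, Pdk1 and Aldoc held in 5, 4 and 6 of the 9 fits that left out a library.

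In the Wnt list of 51 genes 7 rose and 4 fell around a median of -0.11. Sost and Sfrp4 both encode secreted antagonists and went opposite ways. Sost, sclerostin, was at 157, 276.5 and 156 against 68, 33.5 and 15 (-2.18, SE 0.31, limma adjusted p = 0.00557), and Sfrp4 at 426.5, 211 and 115 against 1093.5, 533 and 708 (1.72, SE 0.24, limma adjusted p = 0.00526). Axin2, a feedback inhibitor and standard target of the pathway, was at 110, 8 and 10 against 291, 52.5 and 56 (1.62, SE 0.18, limma adjusted p = 0.00339). The ligands Wnt7a (1.54) and Wnt7b (1.41) and the receptor Fzd10 (1.40) rose, and the ligand Wnt16 fell (-0.93). Wnt7b was under 50 in every luciferase library, so its size depends on the added 10.

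In the Hedgehog list of 18 genes none rose and 4 fell, and 9 were lower on all 3 days. Arhgap36, an activator of Gli factors, led with 2628, 1516.5 and 600.5 against 390.5, 395.5 and 136.5 (-2.23, SE 0.17, limma adjusted p = 0.0011). The transcription factor Gli2 fell by 0.60, the ciliary regulator Kif7 by 0.71 and the ciliary protein Evc by 0.49, with calls held in 1, 6 and 7 of 9 fits. The receptor and target Ptch1 was not called (-0.45, limma adjusted p = 0.071). The medians, -0.32, -0.30 and -0.26, were similar on the 3 days. Removing the length trend left 3 calls and a day 12 median of -0.15. In the Notch list of 22 genes 4 fell and Notch1 rose (0.51, held in 2 of 9 fits). The falls included the target Hey1, at 150, 161 and 137 against 85.5, 65.5 and 50 (-1.07, SE 0.15, limma adjusted p = 0.0056), and the feedback inhibitor Nrarp, at 1230, 1163 and 1114.5 against 667.5, 714 and 603 (-0.81, SE 0.10, limma adjusted p = 0.00368). Neither gene showed overlap between the arms.

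In the list of 58 FGF and MAPK feedback genes 9 rose and 3 fell. Ereg, the EGF receptor ligand epiregulin, had 70.5, 69.5 and 81.5 in the luciferase arm and 648.5, 327 and 288.5 in the Hnrnpk arm (2.27, SE 0.23, limma adjusted p = 0.00272). Dusp9, a phosphatase of ERK kinases, was at 61.5, 51 and 112 against 108, 356.5 and 1193 (2.20, SE 0.40, limma adjusted p = 0.0111). The immediate-early factors Egr1 and Egr2 fell, by 0.83 and 1.26, while Jun rose by 0.50, a call that held in 1 of 9 fits. In the TGF-beta and BMP list of 62 genes 6 rose and 9 fell around a median of 0.00. Nodal, a ligand of early embryos, was under 10 in the luciferase arm, at 4.5, 6 and 7, and at 16, 97 and 165 in the Hnrnpk arm (2.32, SE 0.44, limma adjusted p = 0.0135). Inha, an inhibin subunit, fell from 176, 194 and 181.5 to 48, 103.5 and 66 (-1.29, SE 0.18, limma adjusted p = 0.00492). Of 23 YAP targets 3 rose and 3 fell: F3, tissue factor, and Ankrd1, a stretch-responsive nuclear protein, were 1.56 and 1.42 higher, and the kinase Nuak2 was 0.81 lower, with values of 802.5, 839 and 925.5 against 448, 520.5 and 484.5.

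Matrix genes split by day and by member. Among 29 collagens 3 rose and 3 fell, and the median went from 0.42 on day 6 to -0.33 and -0.25 on days 9 and 12; 9 of the 29 were higher on day 6 and lower on both later days (against 12.4% of all genes). With the length trend removed the day 12 median was -0.12. The summed fibroblast markers (which include Col1a1, Col1a2 and Col3a1) took the same course. In the lincRNA-p21 arm, against the same luciferase libraries, the collagen medians also changed side, at 0.42, -0.09 and -0.21. Col25a1 fell from 118, 110 and 78 to 45.5, 48 and 29 (-1.14, SE 0.17, limma adjusted p = 0.00595), and Col22a1, a collagen of tissue junctions, rose from 29.5, 23 and 33.5 to 77, 73.5 and 82.5 (1.19, SE 0.18, limma adjusted p = 0.00609). The fibrillar collagen gene Col5a1 (-0.76) and the microfibrillar Col6a3 (-0.81) also fell, with calls held in 5 of 9 fits leaving out a library. Among 30 genes of collagen processing and elastic fibres 7 fell and 2 rose. Eln, elastin, was at 1151, 3984 and 1984 against 453, 1196 and 1225 (-1.25, SE 0.19, limma adjusted p = 0.00672), and the elastic fibre genes Mfap2, Ltbp4, Fbn2 and Emilin1 fell with it (-0.79, -0.63, -0.50 and -0.42), those of Fbn2 and Emilin1 held in 1 and 2 of 9 fits. Lox, the enzyme that cross-links both collagen and elastin, rose, with its widest gap on day 6 (2575, 2622.5 and 2677 against 11211.5, 3711 and 4774.5). In the list of 44 proteoglycans and matricellular proteins 4 rose and 7 fell. Osteopontin, Spp1, was at 1530, 2458 and 2478 against 4939.5, 3699 and 7340 (1.28, SE 0.21, limma adjusted p = 0.00892), and Spock2, a matrix proteoglycan, at 1532.5, 3214 and 3870.5 against 518, 1789.5 and 1579 (-1.23, SE 0.18, limma adjusted p = 0.00634). Of 64 extracellular proteases and inhibitors 10 rose and 5 fell: the urokinase Plau (1.45) and the aggrecanase Adamts5 (1.42) rose, and the serine protease Htra3 fell from 139.5, 185 and 186 to 62, 33.5 and 42.5 (-1.71, SE 0.25, limma adjusted p = 0.00563). Lama1, a laminin chain of early basement membranes, rose from 211, 265 and 475.5 to 504, 960.5 and 1058.5 (1.39, SE 0.18, limma adjusted p = 0.00421), and the integrin Itga3, a laminin receptor, rose by 1.01.

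Keratin and skin barrier genes had medians above 0 on each day, while desmosome genes did not. Of 17 keratins 10 rose and none fell, and 13 were higher on all 3 days. Of the 10 calls 2 held in all 9 fits leaving out a library (Krt16 and Krt17), and 8 held in at least 6. Those of Krt42 and Krt14 held in 5 and 1. Basal and stress keratins differed by unequal amounts on the 3 days: Krt17, for example, was at 157, 1310.5 and 1322 against 281, 2440 and 4106 (1.11, SE 0.16, limma adjusted p = 0.00582). Of 27 cornified envelope and skin barrier genes 13 rose and none fell, with medians of 0.88, 0.81 and 0.55 (0.25 on day 12 with the length trend removed). Cnfn, cornifelin, was already at 332 on day 6 in the Hnrnpk arm, against 12 in the luciferase arm, and at 360 and 781.5 against 166.5 and 316.5 later. Sprr3, Cst6 and Sprr1b rose by 1.79, 1.73 and 1.57. Of 24 claudin and tight junction genes 8 rose (33.3%, against 5.58% of all genes) and 2 fell, with medians of 0.27, 0.14 and 0.24. The claudins Cldn4, Cldn6 (2.36) and Cldn7 (0.78) rose. Cldn11 (-0.66) and Cldn3 (-0.59) fell, the last with a call that was lost in each of the 9 fits. Of 31 epithelial regulators and adhesion genes 9 rose (29%) and 1 fell, with medians of 0.27, 0.63 and 0.31. The cingulin relative Cgnl1, which anchors tight junctions to the cytoskeleton, was at 276.5, 308.5 and 402 against 1179, 852 and 1062.5, with no overlap (1.62, SE 0.19, limma adjusted p = 0.00339). Pkp1, a desmosomal plakophilin, was one of the epithelial genes that fell (-0.63). The summed keratinocyte markers were also higher on each day, as given above; whether more cells or more RNA per cell underlies this cannot be told apart.

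Some contractile and neuronal cytoskeleton genes rose. Of 26 smooth muscle genes 7 rose and none fell, and 13 were higher on all 3 days. Des, the muscle filament desmin, was at 44, 38 and 36.5 against 197.5, 108 and 171 (1.73, SE 0.18, limma adjusted p = 0.00286), and Cnn1, calponin, at 47, 22 and 21 against 96, 54 and 116 (1.31, SE 0.29, limma adjusted p = 0.0239). Myl9 and Tagln rose by 1.05 and 1.03. Skeletal muscle genes were mostly outside the table (7 of 26 measured). Acta1, skeletal actin, rose by 1.65 and Tnni1, slow troponin I, fell by 1.30. Of 26 neuronal cytoskeleton and axon genes 10 rose and 1 fell, and 11 were higher on all 3 days, led by Nefl, Nefm (2.12), Stmn4 (1.86) and Crmp1 (1.69). Stmn4, a microtubule-destabilising stathmin, was at 7, 2 and 3 against 69, 35 and 25.5, so its size depends on the added 10 and a fall could hardly have been seen. Channel genes were split: of 41 calcium, sodium and chloride channels 4 rose and 5 fell, and 17 (against 23.4% of all genes) were lower on all 3 days. The auxiliary sodium channel subunit Scn3b rose from 28.5, 17.5 and 19.5 to 151, 78 and 71.5 (1.74, SE 0.20, limma adjusted p = 0.00353). The pore-forming subunit Scn10a fell from 132, 195 and 136 to 51, 74.5 and 39 (-1.36, SE 0.16, limma adjusted p = 0.00357). Guidance genes were split evenly, with 9 of 59 rising (Robo3 by 1.64 and Epha4 by 1.26) and 9 falling (Efna1 by 0.84).

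Among transcription factor families, zinc finger genes held a larger share lower on all 3 days than all genes did, and a smaller share called lower. Of 303 zinc finger genes 4 rose and 14 fell (4.62%, against 6.94% of all genes), and 118 were lower on all 3 days, which is 38.9% against 23.4% of all genes, with a median of -0.10. Zfp783, annotated as a transcribed pseudogene, fell most, from 292, 340 and 328.5 to 102.5, 137 and 98 (-1.44, SE 0.13, limma adjusted p = 0.00259), followed by Zfp521 (-0.93), Zfp395 (-0.85) and Zfp580 (-0.76). With the length trend removed the median was -0.07 and 5 rose and 15 fell. Of 32 Hox genes none rose, 13 (40.6%) were lower on all 3 days, and 2 (6.25%, near the 6.94% of all genes) fell, Hoxd12 (-1.27) and Hoxd11 (-0.46, a call held in 1 of 9 fits). Hoxd12 was at 260, 158 and 97 against 83, 83.5 and 30 (SE 0.19, limma adjusted p = 0.00609). Of 55 other homeobox and T-box genes 4 rose, Nkx2-3 (2.94), Otx2 (1.98), Gbx2 (1.80) and Irx3 (1.28), and 5 fell, led by the chromatin organiser Satb1 at 868, 721 and 551 against 257, 418.5 and 309 (-1.10, SE 0.18, limma adjusted p = 0.00856). Polycomb genes were nearly level (32 genes, median 0.00), with Rybp rising by 0.61 and Ezh1 falling by 0.59.

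The RNA-binding relatives of Hnrnpk were mostly not called. Among the other 30 entries of hnRNP genes the fall of Hnrnpr (-0.48) was the 1 call, for an entry with 225, 310 and 290 against 174, 208.5 and 197. The table holds a second entry under the same symbol. None of 20 SR splicing factors was called by limma (1 at an unadjusted p under 0.05). The hnRNP median was -0.39 on day 6 and 0.14 and 0.18 on days 9 and 12. Of the 30 entries 19 (against 14.8% of all genes) were lower on day 6 and higher afterwards. In the lincRNA-p21 arm, against the same luciferase libraries, the hnRNP medians were -0.33, 0.10 and 0.24. Of 21 tissue-type splicing regulators Celf5 (0.79) and Rbm47 (0.73) rose, and Khdrbs3 (-0.68), Nova2 (-0.58) and Mbnl3 (-0.56) fell. Khdrbs3, a STAR-family splicing factor, was at 490, 240.5 and 214 against 284, 155.5 and 129 (SE 0.12, limma adjusted p = 0.0107).

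Of 218 solute carriers 13 rose (5.96%, near the 5.58% of all genes) and 22 fell (10.1%, against 6.94%), around a median of 0.04. Slc27a2, a fatty acid transporter, was at 6.5, 19.5 and 33 against 27, 163 and 201.5 (2.01, SE 0.30, limma adjusted p = 0.0063), and the phosphate transporter Slc20a1 at 1092, 1196 and 1077 against 2035.5, 2538.5 and 2667.5 (1.09, SE 0.10, limma adjusted p = 0.00272). Of 33 imprinted and insulin-like growth factor genes 5 rose and 2 fell. Rian, a maternally expressed non-coding RNA, was at 1731.5, 1914 and 1558 against 3171, 3914.5 and 4207.5 (1.11, SE 0.16, limma adjusted p = 0.00579). Peg10, a paternally expressed gene derived from a retrotransposon, was level on day 6 (1976 against 1944) and higher on days 9 and 12 (753 and 1019 against 3826 and 5860). Igf2 was at 5518, 4141 and 2401 against 7803.5, 7653.5 and 9007, and H19, the non-coding RNA beside it, rose as well (1.10 and 0.78), with calls held in 7 and 3 of 9 fits. The call of Peg10 held in 2.

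Several lists of cell structure genes had their highest median on day 6. Of 37 lysosome genes 4 rose and 2 fell, with medians of 0.64, 0.07 and 0.05. Medians on days 6, 9 and 12 were 0.51, 0.03 and -0.27 for 18 integrins, of which 3 rose and none fell, and 0.43, -0.11 and -0.37 for 10 laminin chains, of which 2 rose and none fell. With the length trend removed the day 12 medians were -0.12 for integrins and -0.18 for laminins. Desmosome and hemidesmosome genes had medians of 0.55, 0.23 and -0.22, with 3 of 24 rising and 1 falling. In the lincRNA-p21 arm, against the same luciferase libraries, the day 6 medians of these 4 lists were 0.41, 0.22, 0.06 and 0.00.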

How the data were processed

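The study sequenced total RNA of reprogramming mouse cells. The authors deposited 1 table of normalized signal per gene and library, and per the submitters' processing notes RSEM 1.2.12, Bowtie 1.0.1 and mm10 were used, without stated roles. In the deposited signal, values move in steps of 0.5, 62.78% are whole and every column has the same highest value, 118715. Reads were not recovered, so no count test was used and depth is unknown. Here 10 was added, values were put on the log2 scale, and genes with a mean of at least 20 were tested in R 4.3.3 with limma 3.58.1 (arm and day terms, all 9 libraries, intensity trend, 4 residual and 8.46 total degrees of freedom, Benjamini-Hochberg at 0.05). With 1 library per arm and day, the p-values measure the spread of arm differences over days.

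Gene symbols came from the table, coordinates and gene types from GENCODE M21 on GRCm38, which is mm10 (12462 genes matched, 79 did not), and promoters from RefSeq. Of 8 motifs searched, 2 are described. The lists and the rule for genes named were chosen with earlier results of these data known, so they are not independent support. The rule takes the hairpin targets, the 12 called genes each way ranked by the smallest of their 3 daily differences, up to 4 called members of each list (6 where roles are described), and the 4 called genes each way with the largest spread over days. The other members named were chosen after their values were seen. Clone-named genes, small RNAs and pseudogenes were skipped when ranking all genes. The test was tried on simulated data before use. Alternatives were the pseudocount, filters, model terms, moderation, centring, each library and each day left out and, added later, removal of a transcript length trend. Some members of the lists are not reported here by name, and the counts include them.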

Additional observations from a re-analysis of the deposited data

Results flagged for a closer look

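Of the lists read, 3 had a median at least 0.25 from 0 on each day with day 6 on the other side from days 9 and 12. For DNA replication genes the medians were -0.57, 0.27 and 0.60, for mitosis genes -0.66, 0.42 and 0.76, and for collagens 0.42, -0.33 and -0.25, on days 6, 9 and 12. The difference between days was not tested, since each arm has 1 library per day. With the transcript length trend removed, an alternative chosen after seeing the data, the day 12 median of the collagens was -0.12, those of replication and mitosis 0.52 and 0.79. In the lincRNA-p21 arm, against the same luciferase libraries, all 3 lists changed side as well. Its medians were -0.22, 0.24 and 0.53 for replication, -0.34, 0.27 and 0.60 for mitosis and 0.42, -0.09 and -0.21 for collagens.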

How the results depend on the processing

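The count of genes called was 1570, and 1308 to 1569 with another pseudocount, filter, moderation or centring, and 1780 with the transcript length trend removed (chosen after seeing the data). It was 330 with only the 6 libraries compared, 1 without a term for day, 3001 without day 6, 25 without day 9 and 367 without day 12. Leaving out 1 library gave 559 to 2045. Without a test, 129 genes differed by at least 2-fold in 1 direction on all 3 days. Of the 33 genes named for steadiness, spread or as targets, none changed direction under any alternative, and 25 remained called with each of the 9 libraries left out. Apart from the targets, these genes were chosen from the same values, so this is not independent support. Hnrnpk (-0.997) lost its call with only the 6 libraries compared (adjusted p 0.0528), without a term for day (0.0979), without day 9 (-1.17, 0.0756) and without day 12 (-1.06, 0.0531). Trp53cor1 (-0.94) lost its call without a term for day (0.108), without day 9 (-1.04, 0.0852) and without day 12 (-0.91, 0.0686). The called list members lost most often were those lost without the luciferase or Hnrnpk library of day 9 (254 and 245 of 425) or the Hnrnpk library of day 12 (211). The cause was not tested. The term for day pairs the arms by day, and the fit without it is given above. Merged replicates and unknown depth leave the error within a day unmeasured.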
